A study of Homo sapiens with 8 samples.

Results

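The AC16 cells compared here had all spent their last 24 h at 50 mM glucose and differed in the glucose they were kept at before. AC16 is an established human line that divides, derived from a fusion of adult ventricular heart cells and transformed fibroblasts. In the 25 to 50 mM group (replicates 2 and 3), cells maintained at 25 mM received a further 25 mM glucose. In the 5 to 50 mM group (replicates 1 and 2), cells maintained at 5 mM received a further 45 mM. Maintenance lasted at least 3 passages in medium with fetal bovine serum and antibiotics, and no transgene, knockdown or inhibitor was part of any group. These are 4 of the 8 RNA-seq libraries of the series. The other 4 libraries, at 25 mM (replicates 1 and 3) and at 5 mM (replicates 1 and 3), were used to look at the same contrast without the rise to 50 mM. A gene entered the comparison when its RPKM, the read number scaled by gene length and by the depth of the library, was at least 1 in at least 2 of the 4 libraries at 50 mM, which kept 11768 of 19479 genes. Every difference below is the 25 mM history minus the 5 mM history on the log2(RPKM + 1) scale, which understates the change of genes with low RPKM.

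The history, the culture, the deposited table and the amount of glucose added differ between the groups together, so they cannot be told apart, and no library with an osmotic control was analysed. The series calls its replicates technical. P-values therefore measure only the spread between these libraries, which may be technical, and not that between independent cultures.

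Some background on the genes that differed most helps to read the values. Cytosolic RNA and DNA sensors and interferon receptors lead to transcription factors that switch on the interferon-stimulated genes, a large group of antiviral effectors. The ERK kinases carry growth factor signals to transcription factors and to their own feedback inhibitors, such as the phosphatase DUSP6. YAP1 and TAZ (gene WWTR1) are co-activators that enter the nucleus on a stiff matrix or when the Hippo kinases are idle, and drive matrix and growth genes with the TEAD factors. The title of the series links ERK signalling with YAP1 and TAZ in high glucose. Aldose reductase, encoded by AKR1B1, turns glucose into sorbitol, and TXNIP is a textbook target of the glucose sensor MondoA.

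Among the motifs and lists searched, the largest share was that of the interferon response motif in promoters of the interferon-stimulated genes. That share describes the list, whose genes are defined by this response. The motif GAAANNGAA, the core of the interferon response element, was searched on both strands in the 250 bases before the start of each gene, in RefSeq promoters of build GRCh38.p14. It was present in 21 of 35 promoters of tested interferon-stimulated genes, in 13.8% of 465 promoters of genes at least 2-fold lower with the 25 mM history, and in 5.45% of 9753 promoters of all genes tested. Most of these interferon-stimulated genes are also among the 465. The AP-1 motif TGANTCA was present in 7.96% of the 465 promoters and in 3.77% of the 9753. Over all 27305 promoters, tested or not, the interferon response motif was present in 7.06% and the AP-1 motif in 6.6%. The TEAD motif GGAATG was present in 6 of 19 promoters of tested YAP1/TAZ targets and in 9.5% of the 9753. The last 150 bases before the start are shown for 4 interferon-stimulated genes that were among the lowest with the 25 mM history and hold the interferon response motif in this stretch, and for TNFAIP6, a gene of inflammation that holds the AP-1 motif. Capitals mark the matched bases of the interferon response motif in the first 4 and of the AP-1 motif in TNFAIP6, and overlapping matches run together. ISG20 also holds an AP-1 match, left in lower case, that begins 22 bases before the start. A match is a description of these letters, not a site shown to be bound.
IFI44L: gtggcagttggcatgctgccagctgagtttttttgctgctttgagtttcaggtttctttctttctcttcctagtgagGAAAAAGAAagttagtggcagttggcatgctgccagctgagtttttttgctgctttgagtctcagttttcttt
IFIT1: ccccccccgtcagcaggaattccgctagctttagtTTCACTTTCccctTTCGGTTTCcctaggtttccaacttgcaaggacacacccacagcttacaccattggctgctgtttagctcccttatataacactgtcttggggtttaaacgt
ISG20: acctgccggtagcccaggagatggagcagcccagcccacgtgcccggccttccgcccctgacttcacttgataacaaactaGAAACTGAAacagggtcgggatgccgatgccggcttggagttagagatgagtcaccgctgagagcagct
ISG15: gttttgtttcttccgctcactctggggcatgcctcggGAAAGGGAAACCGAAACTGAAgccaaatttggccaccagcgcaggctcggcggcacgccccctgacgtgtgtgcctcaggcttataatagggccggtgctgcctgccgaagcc
TNFAIP6: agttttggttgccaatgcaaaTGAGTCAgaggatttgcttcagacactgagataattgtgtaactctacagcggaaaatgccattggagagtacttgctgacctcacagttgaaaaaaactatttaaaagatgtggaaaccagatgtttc
The stretch of IFIT1 holds 2 matches on the opposite strand, beginning 115 and 102 bases before the start, and that of ISG15 holds 3 overlapping ones. These stretches lie at chr1:78620298-78620447 (IFI44L, plus strand), chr10:89392473-89392622 (IFIT1, plus strand), chr15:88638866-88639015 (ISG20, plus strand), chr1:1013347-1013496 (ISG15, plus strand) and chr2:151357442-151357591 (TNFAIP6, plus strand).

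Library totals ran from 21538898 to 27372851 reads over the 8 libraries and from 23231096 to 24983510 reads over the 4 at 50 mM, so 3 reads in a gene of 1 kb equal 0.12 to 0.129 RPKM in the latter. Of 23 listed markers of cardiomyocytes, 2 passed the filter, both only through the 5 to 50 mM group, and the list summed to 2.02 to 2.81 RPKM with the 25 mM history and to 7.70 to 7.77 RPKM with the 5 mM history. NKX2-5, TBX5, MYL2, CASQ2 and MB were at 0 in all 8 libraries, so the label of a cardiomyocyte rests on few transcripts here. Of 15 listed fibroblast markers 14 were found in the tables, and these were at 1 RPKM or more in each library. Of these, 4 were higher with the 25 mM history, 6 were lower and 4 did not pass the limma test given below. That test called 20.1% of all genes tested higher and 24.9% lower. The libraries of a group differed by more than counting error (chi-square per degree of freedom 7.84 at 25 to 50 mM and 2.6 at 5 to 50 mM), so neither group holds plain copies of 1 library.

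The 50 mM libraries of the 2 histories differed widely, and the large differences were mostly lower values with the 25 mM history. By limma, with p-values adjusted by Benjamini-Hochberg across the 11768 genes and a threshold of 0.05, 2361 genes were higher with the 25 mM history, which is 20.1% of those tested, and 2936 were lower, which is 24.9%. At differences of 2-fold or more the counts were 38 higher (0.323%) and 620 lower (5.27%), against 76 and 453 with quantile normalization and 67 and 873 with voom. The split of the smaller differences depends on the scaling: median centring gave 2975 higher and 2569 lower, and quantile normalization 3428 and 2242. Many calls were small, with 1052 of them under 0.25 in absolute log2 difference. Groups without overlap were common among the 11768 genes: both 25 mM history libraries lay above both others in 4135 and below them in 4669. The median absolute difference between 2 libraries was 0.0607 within the 5 to 50 mM group, 0.0822 within the 25 to 50 mM group and 0.204 to 0.23 between a library of one group and a library of the other. Without 5 to 50 mM replicate 1 the calls were 870 higher and 1540 lower, and without its replicate 2 they were 923 and 1601.

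**Figure D1:**
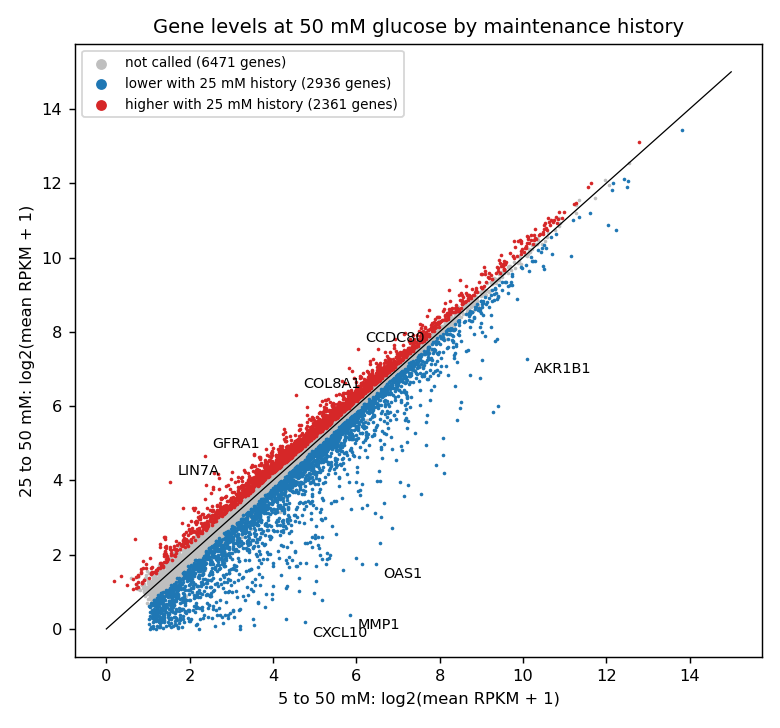
Mean level of each of the 11768 tested genes with the 5 mM history (x axis) and with the 25 mM history (y axis) at 50 mM glucose, as log2(mean RPKM + 1), with the line of equality. Blue genes (2936) were lower and red genes (2361) higher with the 25 mM history, and the blue cloud reaches farther from the line, as for MMP1 and CXCL10.

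Interferon-stimulated genes were the list with the lowest values in cells with the 25 mM history. Of 47 tested members, 46 were lower, 45 of them by at least 2-fold, 0 were higher, and 1 did not pass. The median difference of the list was -2.74, beside -0.020 over all genes tested. Of the 47, 6 passed the filter on low values only through the 5 to 50 mM group, so their difference follows from the filter. In all, 414 of the genes tested passed through 1 group only, among them 2 genes each of the NF-kB, matrix protease and integrin lists below and 1 gene each of the MHC, matrix, insulin-like growth factor, Wnt, EGF receptor, glycolysis, polyol and histone lists.

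Among the antiviral effectors, OAS1, which makes the oligoadenylate that activates RNase L, was at 2.82 and 1.97 RPKM with the 25 mM history and at 84.7 and 90.8 RPKM with the 5 mM history. The groups lie far apart, with a fitted fold of 26.4 (log2 difference -4.72, SE 0.13, adjusted p = 3.06e-05). Its relative OAS2 stood at 4.57 and 3.4 against 90.3 and 99.1 RPKM (log2 difference -4.27, SE 0.12, adjusted p = 3.71e-05). MX1, a dynamin-like GTPase that traps viral particles, had 6.53 and 4.56 RPKM in the 25 mM history libraries and 108 and 121 RPKM in the others. IFIT1, which binds foreign RNA ends, was at 18.4 and 16.3 against 259.9 and 293 RPKM (log2 difference -3.92, SE 0.083, adjusted p = 1.86e-05), and IFIT2 at 11.3 (both libraries) against 182 and 192 RPKM. Reads of the IFIT and OAS genes may be shared among close paralogs. ISG20, an RNA exonuclease, had 1.48 and 0.594 RPKM and 22.9 and 24.2 RPKM, respectively, so no library of one group came near the other. For the ubiquitin-like ISG15, chosen here for its promoter after its values were seen, the levels were 69.6 and 43.6 against 623 and 614 RPKM. USP18, the protease that removes ISG15 from proteins, was at 2.07 and 1.9 against 49.4 and 50.8 RPKM (log2 difference -4.10, SE 0.069, adjusted p = 1.22e-05). IFI44L, an interferon-induced gene with an antiviral role, was at 0.329 and 0.0884 against 18.1 and 19.4 RPKM. It passed the filter only through the group with the 5 mM history.

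The level before the rise was low in the same history. At maintenance IFIT1 was at 16 and 27.3 RPKM at 25 mM and 155 and 151 RPKM at 5 mM, and OAS1 at 2 and 6.72 and 53.8 and 50.9 RPKM. Of the 47 members, 45 were lower at maintenance too, with a median of -1.91. The distance between histories was wider at 50 mM than at maintenance in 46 of 47, although the change of the difference passed for none of them. The absolute difference was also larger at 50 mM in 6367 of all 11768 genes. Among genes at least 2-fold lower at 50 mM it was larger there in 438 of 620, and among those at least 8-fold lower in 38 of 44. The sensors and signal factors differed less than the effectors, with medians of -1.60 over 10 tested genes and -2.93 over 35. CGAS, the cytosolic DNA sensor, was the member that did not pass, at 21.2 (both libraries) against 20.2 and 22.4 RPKM (adjusted p = 0.973), and was picked out after its values were seen. The chemokine CXCL10 was at 0 and 0.27 RPKM with the 25 mM history and 27.8 and 24.5 RPKM with the 5 mM history, where it had been at 9.38 and 10.7 RPKM before the rise. IDO1, the interferon-induced tryptophan-degrading enzyme, had 0 reads in both 25 to 50 mM libraries and 97 to 110 reads in the 5 to 50 mM ones. Taking 3 reads per library as the floor, it was at least 36.7-fold lower. CXCL10 and IDO1 passed the filter only through the 5 to 50 mM group.

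**Figure D2:**
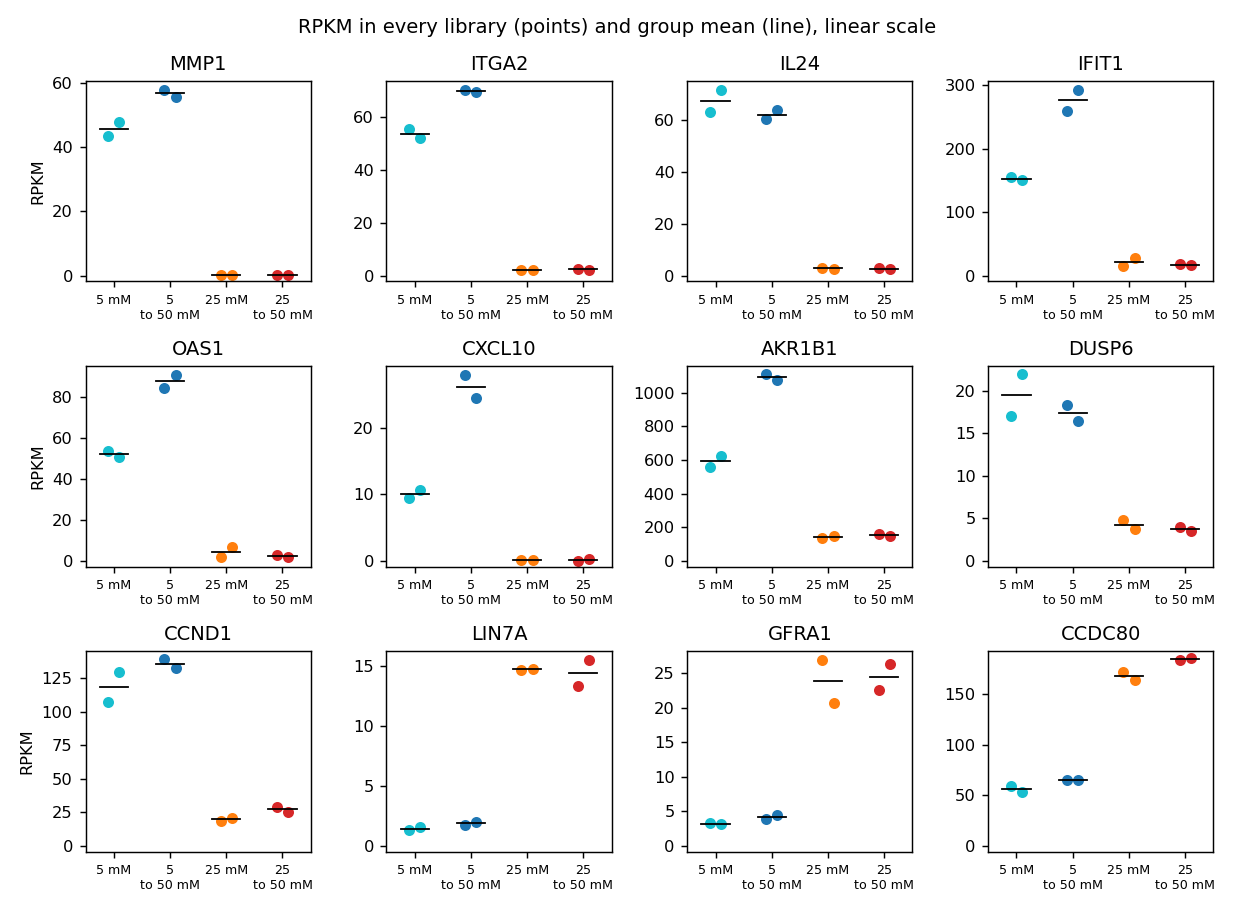
RPKM of 12 genes in all 8 libraries, on a linear axis from 0, with the 5 mM, 5 to 50 mM, 25 mM and 25 to 50 mM groups side by side, a point per library and a line at the mean of 2 libraries. In each panel the 4 libraries of one history lie on one side of the 4 of the other, and IFIT1, OAS1, CXCL10 and AKR1B1 also stand higher at 5 to 50 mM than at 5 mM.

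Genes that load and present peptides on MHC class I were lower along with them. Of 17 tested members 15 were lower and 2 were higher, with a median difference of -0.99. HLA-B, a heavy chain, was at 99.3 and 85.5 RPKM with the 25 mM history and 234 and 227 RPKM with the 5 mM history (log2 difference -1.31, SE 0.075, adjusted p = 0.000242), and TAP1, the peptide transporter, at 3.14 and 2.95 against 10.7 and 11.3 RPKM (log2 difference -1.57, SE 0.079, adjusted p = 0.000152). Reads of HLA-B, HLA-C and HLA-F may be shared among these similar genes. The 2 higher members were chaperones of the endoplasmic reticulum that serve other proteins as well. CALR stood at 1388 and 1386 against 882 and 879 RPKM, and PDIA3, named after its values were seen, had a difference of 0.42. Before the rise HLA-B had a like order, at 98.9 and 109 RPKM at 25 mM and 222 and 265 RPKM at 5 mM.

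Secreted inflammatory signals were the next large block. Of 18 tested cytokines and chemokines, 17 were lower with the 25 mM history, 0 were higher and 1 did not pass, with a median of -1.71. Of the 18, 5 passed the filter only through the 5 to 50 mM group. IL32 was the exception, with a difference of 0.18 (adjusted p = 0.125; named after its value was seen). IL24, a cytokine of the IL10 family, was at 3 and 2.5 RPKM against 60.3 and 64.1 RPKM (log2 difference -4.08, SE 0.087, adjusted p = 1.86e-05). IL1B, a central fever and inflammation cytokine, was at 11.1 and 11 against 144 and 135 RPKM (log2 difference -3.54, SE 0.054, adjusted p = 1.22e-05), and IL6, which signals through STAT3, at 7.89 and 7.52 against 91.2 and 80.6 RPKM (log2 difference -3.32, SE 0.076, adjusted p = 2.3e-05). For each of these, both libraries with the 25 mM history lay far below both of the others. Such an order, at any distance, held for 4669 of the 11768 genes tested. CCL2, which draws monocytes, was at 16.7 and 12.3 against 133 and 132 RPKM. Differences of the same order were present before the rise for IL24 (-4.18) and IL1B (-3.79).

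Factors and feedback genes of NF-kB, the transcription factor behind many cytokine genes, gave 12 lower, 1 higher and 5 not passing of 18 tested, with a median of -0.67. TNFAIP6, a secreted hyaluronan-binding protein whose promoter is shown above, was at 0.683 and 0.816 against 14.6 and 14.7 RPKM (log2 difference -3.16, SE 0.085, adjusted p = 3.06e-05). It passed the filter only through the 5 to 50 mM group, so its direction follows from the filter. TNFAIP3, a ubiquitin-editing inhibitor of the pathway, was at 4.63 and 5.28 against 20.6 and 19 RPKM, and SOD2, the mitochondrial superoxide dismutase, at 42.4 and 40.4 against 147 and 150.3 RPKM. The member that was higher was RELA, a subunit of NF-kB itself, with a difference of 0.14, named after its value was seen. That call was lost when 1 library was left out (adjusted p = 0.201 and 0.156 without replicate 1 or 2 of the 5 to 50 mM group; adjusted p = 0.0524 without 25 to 50 mM replicate 2). Of the endothelin and prostaglandin genes, 8 of 12 were lower and 2 higher, and 3 of the 12 passed the filter through 1 group only. PTGS2, the inducible cyclooxygenase, was at 0.448 and 0.397 against 7.69 and 6.66 RPKM (log2 difference -2.52, SE 0.10, adjusted p = 9.17e-05). This gene is among those 3.

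Markers of leukocytes moved in the same direction. Of 10 listed markers 4 passed the filter, 2 of them only through the 5 to 50 mM group, and these 4 were lower with the 25 mM history. The call of CD14, a monocyte receptor, was lost when 1 library was left out (adjusted p = 0.083 and 0.0973 without replicate 1 or 2 of the 5 to 50 mM group). The list summed to 87.3 to 88.4 RPKM against 231 to 243 RPKM. Nearly all of that was CD68, a lysosomal protein, at 85.1 and 86.6 against 214 and 225 RPKM. LCP1, an actin bundler, was at 0.454 and 0.531 against 13.4 and 12.9 RPKM. CSF1R also passed the filter and was lower. Of the 10 markers, 4 and 5 reached 1 RPKM in the 5 to 50 mM libraries, against 2 and 1 in the 25 to 50 mM libraries. Among markers that did not pass the filter, PTPRC was at 0.108 to 0.214 RPKM in the 4 libraries at 50 mM, CD3E was at 0 in all of them, and LYZ likewise.

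Transcripts that ERK signalling raises were mostly lower with the 25 mM history, while most components of the pathway itself did not pass. Of 24 tested ERK output genes, 18 were lower, 1 was higher and 5 did not pass, with a median of -0.84. Of the 24, 3 passed the filter through 1 group only, which fixes their direction. Among the 8 feedback inhibitors 7 were lower. DUSP6, the phosphatase of ERK, was at 4.01 and 3.53 RPKM with the 25 mM history and 18.3 and 16.4 RPKM with the 5 mM history (log2 difference -1.94, SE 0.094, adjusted p = 0.000141). SPRY4, a feedback inhibitor of receptor signalling, was at 3.11 and 2.27 against 14.8 and 12.3 RPKM (log2 difference -1.98, SE 0.14, adjusted p = 0.000493). SPRED1, a relative of SPRY4 named after its value was seen, was the member that was higher, by 0.27, a call also lost (adjusted p = 0.0757 and 0.113 without replicate 1 or 2 of the 5 to 50 mM group). CCND1, the cyclin that starts the cell cycle, was at 29.2 and 25.1 against 139 and 132 RPKM (log2 difference -2.28, SE 0.079, adjusted p = 5.78e-05), so neither group came near the other. JUNB, an AP-1 subunit, varied more between its libraries, at 12.9 and 6.13 against 31.3 and 25.7 RPKM, and its call was lost (adjusted p = 0.0904 and 0.0634 without replicate 1 or 2 of the 5 to 50 mM group). EGR1 did not pass at 28.6 and 22.9 against 22.1 and 20.6 RPKM (adjusted p = 0.121), nor did FOSL1, JUN, IER2 and MYC, which were named after their values were seen. Without 25 to 50 mM replicate 3, EGR1 (adjusted p = 0.00622) and JUN (adjusted p = 0.0125) were higher, and without its replicate 2, IER2 was lower (adjusted p = 0.00167).

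MAPK3, which encodes a kinase of the ERK family, was at 69.9 and 73.6 against 68.1 and 72.8 RPKM (adjusted p = 0.724). The groups overlap. Over the 22 tested components of the pathway 4 were higher and 2 lower, beside 20.1% and 24.9% over all genes tested. The other 16 did not pass, and the median of the list was 0.044. Among the higher ones, the phosphatase PTPN11 differed by 0.36, the RAS inhibitor NF1 by 0.32 and NRAS by 0.20. RPS6KA1 and RPS6KA3, kinases downstream of ERK, had differences of -0.43 and -0.19; NRAS and RPS6KA3 were named after their values were seen. Leaving out 1 library ended the calls of NF1 (adjusted p = 0.0968 and 0.0884 without replicate 1 or 2 of the 5 to 50 mM group), NRAS (adjusted p = 0.107 and 0.0768 without replicate 1 or 2 of the 5 to 50 mM group) and RPS6KA3 (adjusted p = 0.191 and 0.224 without replicate 1 or 2 of the 5 to 50 mM group; adjusted p = 0.109 without 25 to 50 mM replicate 2). Among EGF receptor family members and ligands, 2 were higher and 2 lower of 7. The higher ones were the receptor ERBB3, whose call was lost without any 1 of the 4 libraries (adjusted p = 0.068 to 0.139), and the ligand NRG1, whose call was lost without 5 to 50 mM replicate 2 (adjusted p = 0.0535). AREG, a ligand of the EGF receptor, was at 0.0536 and 0.105 against 2.26 and 1.42 RPKM, under or near the 3-read level with the 25 mM history.

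YAP1/TAZ targets did not move as 1 group. Of 26 tested, 10 were higher with the 25 mM history, 6 were lower and 10 did not pass, with a median of 0.15. The share that was lower is near the 24.9% of all genes tested, while the share that was higher is above their 20.1%. Members that encode secreted factors and surface enzymes were lower in 5 of 7 cases and higher in 1, with a median of -0.386. At maintenance 2 of these 7 were lower and 3 higher, with a median of 0.0114, and the change was called for 0 of them. Nuclear, cytoskeletal and signalling members were higher in 9 of 19 and lower in 1 at 50 mM, and also at maintenance. ANKRD1, a stretch-responsive ankyrin repeat protein of heart muscle, was the lower member among these 19 and had the largest difference of the list at 50 mM. It was at 2.84 and 3.42 RPKM with the 25 mM history and 40.7 and 35.4 RPKM with the 5 mM history (log2 difference -3.24, SE 0.11, adjusted p = 5.02e-05).

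CTGF, a matricellular protein now called CCN2, was at 228 and 219 against 302 and 283 RPKM (log2 difference -0.39, SE 0.048, adjusted p = 0.00267). Before the rise its order had been the other way, at 159 and 179 RPKM at 25 mM and 134 and 141 RPKM at 5 mM (difference 0.29, adjusted p = 0.035). CTGF and ME1, the cytosolic malic enzyme (named after its values were seen), were the 2 genes called in opposite directions in the 2 states, but the change of the CTGF difference did not pass over all genes (adjusted p = 0.225). CYR61, now CCN1, did not differ beyond its error at 50 mM, at 1097 and 1083 against 1121 and 1105 RPKM (adjusted p = 0.502). NT5E, a surface enzyme that makes adenosine, was at 66.9 and 62.3 against 183 and 184 RPKM, and F3, tissue factor, at 140.3 and 127 against 297 and 274 RPKM. TGFB2, named after its value was seen, was the secreted member that was higher, at 47.6 and 52.3 against 29.6 and 31 RPKM. Among the others, RBMS3, an RNA-binding protein, was at 8.21 and 8.11 against 4.73 and 4.47 RPKM and PTPN14, a phosphatase that holds YAP1 in the cytoplasm, at 44 and 43.1 against 27.2 and 27.1 RPKM.

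Of the co-activators, YAP1 was higher with the 25 mM history and WWTR1 did not pass. YAP1 was at 92.9 and 96.3 RPKM with the 25 mM history and 74.8 and 73 RPKM with the 5 mM history (log2 difference 0.35, SE 0.043, adjusted p = 0.00247). WWTR1 was at 24.3 and 23.7 against 28.1 and 26.1 RPKM and did not pass (adjusted p = 0.0719). Of 27 tested genes of the Hippo pathway, 13 were higher, 2 were lower and 12 did not pass, with a median of 0.20. VGLL3, a TEAD cofactor, was at 64.4 and 70.0 against 41.1 and 43.5 RPKM. The 2 lower members were VGLL4, which competes with YAP1 for TEAD (-0.61), and the kinase MAP4K4 (-0.58). The call of VGLL4 was lost when 1 library was left out (adjusted p = 0.0517 and 0.0677 without replicate 1 or 2 of the 5 to 50 mM group).

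**Figure D3:**
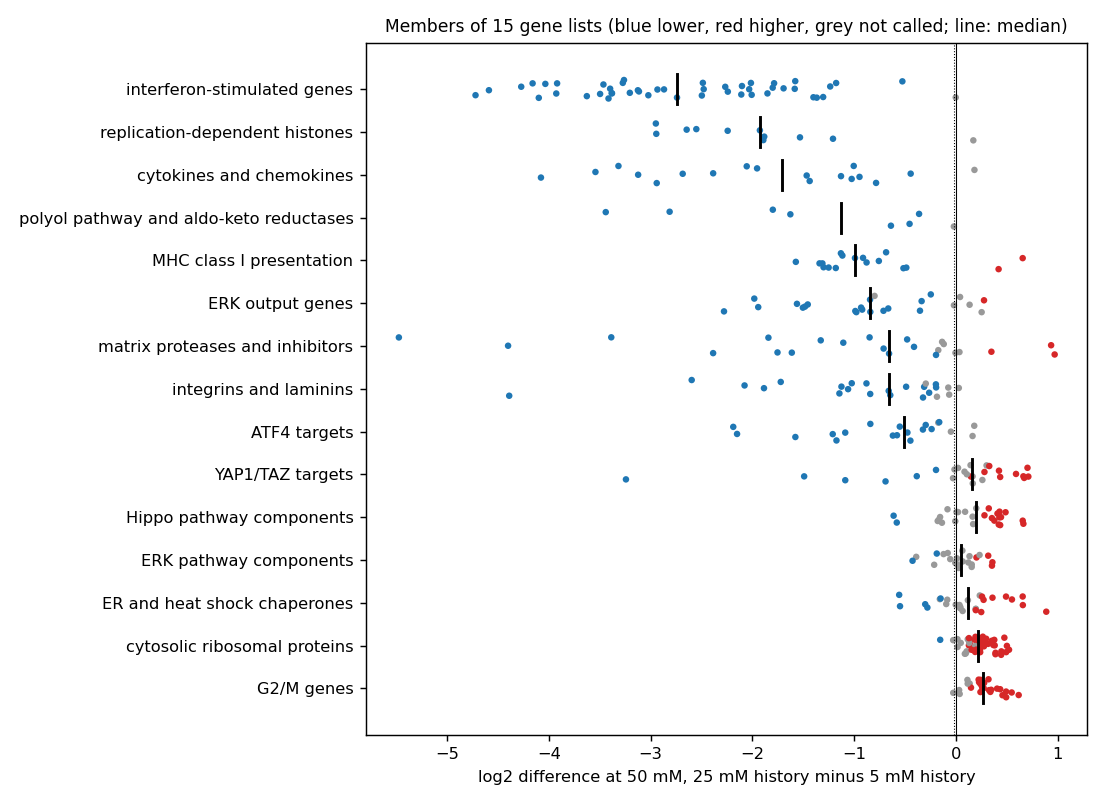
Log2 difference at 50 mM (25 mM history minus 5 mM history) of each tested member of 15 gene lists, a point per gene, with blue for lower, red for higher and grey for not called, a black line at each list's median and a dotted line at the median of all genes tested. The interferon-stimulated genes have the lowest median (-2.74), and the G2/M genes the highest of those drawn (0.26).

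Enzymes that cut the matrix and the integrins that hold it showed some of the widest gaps. MMP1, the interstitial collagenase, had the largest difference of all genes tested. It was at 0.288 and 0.312 RPKM with the 25 mM history and 57.8 and 55.8 RPKM with the 5 mM history, a fitted fold of 44.4 (log2 difference -5.47, SE 0.071, adjusted p = 1.08e-05). MMP3, stromelysin, was at 0.766 and 0.67 against 34.6 and 35.9 RPKM (log2 difference -4.40, SE 0.076, adjusted p = 1.24e-05), and PLAU, the urokinase that activates plasminogen, at 3.33 and 2.56 against 40.3 and 39.8 RPKM (log2 difference -3.39, SE 0.11, adjusted p = 4.78e-05). MMP1 and MMP3 passed the filter only through the 5 to 50 mM group, so their direction follows from the filter. Of 23 tested matrix proteases and their inhibitors and receptors, 15 were lower, 3 were higher and 5 did not pass. The 3 higher ones, ADAMTS5 (0.97), ADAM12 (0.93) and ADAMTS12 (0.35), belong to the disintegrin metalloproteases and were named after their values were seen; that of ADAMTS12 was lost when 1 library was left out (adjusted p = 0.0638 and 0.0578 without replicate 1 or 2 of the 5 to 50 mM group). SERPINE2, a protease inhibitor, was at 67 and 69.8 against 363 and 361 RPKM (log2 difference -2.39, SE 0.039, adjusted p = 1.22e-05).

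Of 24 tested integrin and laminin chains 19 were lower, 0 were higher and 5 did not pass, with a median of -0.65. ITGA2, the collagen-binding alpha chain, was at 2.57 and 2.19 against 70.1 and 69.4 RPKM (log2 difference -4.39, SE 0.077, adjusted p = 1.24e-05). LAMA1 and LAMB3, laminin chains of basement membranes, were at 4.6 (both libraries) against 32.6 and 33.1 and 9.99 and 9.6 against 43 and 46.1 RPKM. Their order was the same at maintenance, with LAMA1 at 4.81 and 4.66 RPKM at 25 mM and 37.9 and 35.5 RPKM at 5 mM.

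The matrix proteins split. Of 47 tested, 18 were higher, 20 lower and 9 did not pass. COL8A1, a short-chain collagen of vessel walls, was at 71.9 and 83.2 RPKM with the 25 mM history and 21.8 and 23.1 RPKM with the 5 mM history (log2 difference 1.74, SE 0.082, adjusted p = 0.000131). TNC, the wound matrix protein tenascin C, went the other way at 53 and 53.4 against 200.3 and 209.9 RPKM (log2 difference -1.93, SE 0.042, adjusted p = 1.98e-05), as did the proteoglycan VCAN at 8.41 and 8.53 against 32.1 and 31.5 RPKM. LOX, which crosslinks collagen, was at 40.3 and 36.9 against 77.8 and 71.1 RPKM. Contractile genes gave 8 higher, 11 lower and 15 not passing of 34, beside 20.1% higher and 24.9% lower over all genes tested. ACTG2 and ACTA2, smooth muscle actins, were lower at 40.6 and 42.5 against 111 and 105 and 9.69 and 9.14 against 23.4 and 23.7 RPKM, and FLNC, a filamin of muscle, was higher at 155 and 142 against 79.7 and 78.6 RPKM.

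Growth factor carriers and antagonists were mixed, beside 20.1% higher and 24.9% lower over all genes tested. Of 12 tested genes of the insulin-like growth factor axis 6 were lower, 2 were higher and 4 did not pass, and of 9 Wnt ligands and antagonists 5 were lower, 2 were higher and 2 did not pass. SFRP1, a secreted inhibitor of Wnt ligands, was at 1.03 and 0.889 against 31.1 and 29.9 RPKM (log2 difference -4.01, SE 0.08, adjusted p = 1.86e-05), and its relative FRZB at 1.46 and 2.17 against 8.5 and 7.79 RPKM. Among carriers of insulin-like growth factors, IGFBP5 was at 1.24 and 1.56 against 6.69 and 6.25 RPKM and IGFBP7 at 154 and 134 against 353 and 329 RPKM. IGFBP3, the main carrier in blood, was higher with the 25 mM history at 37.8 and 36.5 against 18.4 and 17.3 RPKM (log2 difference 1.02, SE 0.059, adjusted p = 0.000243). Over the TGF-beta family, 8 of 17 were lower, 1 was higher and 8 did not pass, with TGFB1 at 38.6 and 34.5 against 76.7 and 72.4 RPKM.

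Polyol pathway and aldo-keto reductase genes were mostly lower with the 25 mM history. AKR1B1, aldose reductase, was at 159.5 and 149.5 RPKM with the 25 mM history and 1109 and 1074 RPKM with the 5 mM history, a fitted fold of 7.03 (log2 difference -2.81, SE 0.046, adjusted p = 1.22e-05). AKR1C1, a relative that reduces steroids and aldehydes, was at 2.6 and 2.88 against 39.1 and 40.1 RPKM, and reads of AKR1C1, AKR1C2 and AKR1C3 may be shared. Of 8 tested polyol and aldo-keto genes 7 were lower and 1 did not pass; that one was SORD, which turns sorbitol into fructose and was named after its value was seen (-0.022, adjusted p = 0.759). TXNIP, which brakes glucose uptake, was at 64.2 and 69.1 against 146 and 150.4 RPKM (log2 difference -1.14, SE 0.05, adjusted p = 0.000108). Its relative ARRDC4 did not pass, at 1.33 and 1.72 against 0.954 and 1.37 RPKM (adjusted p = 0.255). Of 11 tested MondoA/ChREBP targets and factors 5 were lower and 2 higher, beside 24.9% and 20.1% over all genes tested.

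Of 31 tested genes of glucose uptake and glycolysis 17 were lower, 1 was higher and 13 did not pass, with a median of -0.21. The higher one was the phosphofructokinase PFKP (0.17), named after its value was seen, and its call was lost when 1 library was left out (adjusted p = 0.149 and 0.172 without replicate 1 or 2 of the 5 to 50 mM group). SLC2A3, a high-affinity glucose carrier, was at 17.2 and 19.8 against 34.7 and 33.6 RPKM, and HK2, an inducible hexokinase, at 14.2 and 13.3 against 21.2 and 22.3 RPKM. GFPT2, which feeds the hexosamine pathway, was at 14.3 and 12.9 against 23.8 and 24.2 RPKM. In the hexosamine list 3 were higher and 5 lower of 10, beside 20.1% and 24.9% over all genes tested. Genes of the response to hyperosmotic medium gave 10 lower, 0 higher and 6 not passing of 16. SGK1, a salt- and hormone-induced kinase, was at 26.4 and 27.6 against 58.5 and 55 RPKM (log2 difference -1.04, SE 0.055, adjusted p = 0.00018). SLC5A3, the inositol carrier, was close to the threshold at 16.6 and 19.1 against 22.3 and 21.1 RPKM (adjusted p = 0.0493), and its call was lost without 25 to 50 mM replicate 2 (adjusted p = 0.092) and without either 5 to 50 mM library (adjusted p = 0.242 and 0.144 without replicate 1 or 2 of the 5 to 50 mM group). NFAT5, the factor that drives this response, did not pass at 14 and 13.3 against 14.5 and 14 RPKM (adjusted p = 0.502).

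Stress programmes were lower in part. ATF4 targets, which supply amino acids under stress, gave 16 lower, 0 higher and 4 not passing of 20. DDIT4, an inhibitor of mTORC1, was at 7.92 and 5.78 against 37.1 and 32 RPKM and NUPR1, a stress-induced chromatin protein, at 31 and 27.7 against 125 and 144 RPKM. VEGFA, the vessel growth factor and a target of hypoxia factors, was at 6.3 and 5.37 against 35.1 and 28.4 RPKM (log2 difference -2.26, SE 0.12, adjusted p = 0.000212). EPAS1, which encodes HIF-2 alpha, was at 27.8 and 28.2 against 115 and 113 RPKM. Of 22 p53 targets, 11 were lower and 1 was higher. The higher one was XPC, a DNA damage sensor (0.32), named after its value was seen, and its call was lost when 1 library was left out (adjusted p = 0.0908 and 0.0858 without replicate 1 or 2 of the 5 to 50 mM group). CDKN1A, the cell cycle inhibitor p21, was at 57 and 39 against 147 and 136 RPKM, and GDF15, a stress hormone, at 1.89 and 0.561 against 16 and 13.8 RPKM (log2 difference -2.90, SE 0.29, adjusted p = 0.00137). Sterol synthesis and uptake genes gave 15 lower, 0 higher and 9 not passing of 24, with a median of -0.21 at 50 mM and -0.028 at maintenance.

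Most tested genes of cytosolic ribosomes and of G2/M were higher with the 25 mM history, by small amounts, and chaperones were mixed. Over all genes tested 20.1% were higher and 24.9% lower. HSPA5, the chaperone BiP of the endoplasmic reticulum, was at 662 and 675 against 359 and 363 RPKM (log2 difference 0.89, SE 0.034, adjusted p = 7.66e-05), and of 27 chaperones 10 were higher, 5 were lower and 12 did not pass. Of 49 cytosolic ribosomal proteins 38 were higher, 1 was lower and 10 did not pass, with a median of 0.22; RPL4 was at 1351 and 1466 against 979 and 983 RPKM. The lower one, RPS20 (-0.16), was named after its value was seen, and its call was lost when 1 library was left out (adjusted p = 0.154 and 0.106 without replicate 1 or 2 of the 5 to 50 mM group). Of 26 G2/M genes 20 were higher, 0 were lower and 6 did not pass, with a median of 0.26. CCNA2, a cyclin of S phase and mitosis, was at 161 and 162 against 108 and 102 RPKM (log2 difference 0.61, SE 0.045, adjusted p = 0.0005), and BIRC5, survivin, at 152 and 161 against 106 and 108 RPKM. CCNE1, the cyclin of S phase entry, was the lower one of 25 G1/S and replication genes at 2.34 and 3.05 against 6.22 and 6.11 RPKM, beside 11 that were higher.

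Replication-dependent histones moved strongly the other way. Their mRNAs normally lack a poly(A) tail, so their reads also depend on how a library was made. The 16 listed genes summed to 73.5 to 73.6 RPKM with the 25 mM history and to 488 to 500.4 RPKM with the 5 mM history. Of 11 tested, 10 were lower, with a median of -1.93, and 1 (HIST2H2AC) did not pass. HIST1H2BK, which also makes polyadenylated mRNA, was at 35.4 and 32.8 against 267 and 272 RPKM (log2 difference -2.95, SE 0.05, adjusted p = 1.22e-05). This gene alone made up a large part of the sums in both groups. At maintenance the sums were 55.5 to 59.6 RPKM at 25 mM and 316 to 394 RPKM at 5 mM. Whether library preparation differed along with the history was not tested, and near copies may share reads.

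The genes that stood highest with the 25 mM history were fewer and came from no single list. LIN7A, a scaffold protein of cell junctions, was at 13.3 and 15.5 RPKM with the 25 mM history and 1.77 and 2.02 RPKM with the 5 mM history, a fitted fold of 5.32 (log2 difference 2.41, SE 0.10, adjusted p = 0.000103). GFRA1, a receptor for the neurotrophic factor GDNF, was at 22.6 and 26.3 against 3.85 and 4.46 RPKM (log2 difference 2.30, SE 0.10, adjusted p = 0.000121). ALDH1A2, which makes retinoic acid, was at 13.7 (both libraries) against 4.76 and 3.71 RPKM (adjusted p = 0.000531), and CCDC80, a secreted matrix protein, at 184 and 186 against 65.5 and 65.3 RPKM (log2 difference 1.48, SE 0.037, adjusted p = 2.58e-05). The rule that named these genes required groups without overlap. DNAJB4, a heat shock cochaperone, was at 126 and 135 against 54.8 and 56.8 RPKM, and PDE1C, a calcium-dependent phosphodiesterase, at 12.5 and 12.8 against 5.27 and 4.6 RPKM. SYTL2, which tethers vesicles, and STXBP6, which binds the fusion machinery, had differences of 1.37 and 1.47.

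Some genes were present with one history only. With at least 1 RPKM in both libraries of one group and at most 0.1 RPKM in both of the other as the rule, 22 genes were found with the 5 mM history and 0 with the 25 mM history. HSD11B1, which makes active cortisol, was at 0.0463 and 0.0911 against 10.8 and 10.3 RPKM. LAPTM5, a lysosomal protein of blood cells, was at 0.0516 and 0.0507 against 5.27 and 4.86 RPKM. ESM1, a secreted proteoglycan, had 0 reads in both 25 to 50 mM libraries and 107 to 108 reads in the 5 to 50 mM ones, so it was at least 38.1-fold lower at a floor of 3 reads per library. All 22 had the same order at maintenance, and 8 met the rule there too.

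Most of the distance between histories was already there before the rise. At maintenance, 1315 genes (11.2%) were higher at 25 mM than at 5 mM and 2036 (17.3%) were lower, from 4 libraries that share none with the comparison at 50 mM. Of the 2361 genes higher at 50 mM with the 25 mM history, 2332 had the same sign at maintenance, and 1183 were called there in the same direction. Of the 2936 lower genes, 2879 had the same sign and 1865 were called. These shares of the same sign, 98.8% and 98.1%, stand beside 85.4% over all genes tested and 74.7% over those not called at 50 mM. Of the genes at least 2-fold lower, 619 of 620 had the same sign, and of those at least 2-fold higher, 38 of 38. Genes called the same way in both states, 3048 in all, make up 57.5% of the calls at 50 mM and 91.0% of those at maintenance. Across the 11768 genes, which are not independent of each other, the differences in the 2 states had a Pearson r of 0.935 and a Spearman rho of 0.877. Among the 44 genes at least 8-fold lower at 50 mM, the median difference was -3.43 there and -2.84 at maintenance. For MMP1 the differences were -5.47 at 50 mM and -5.40 at maintenance, and for LIN7A 2.41 and 2.69.

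**Figure D4:**
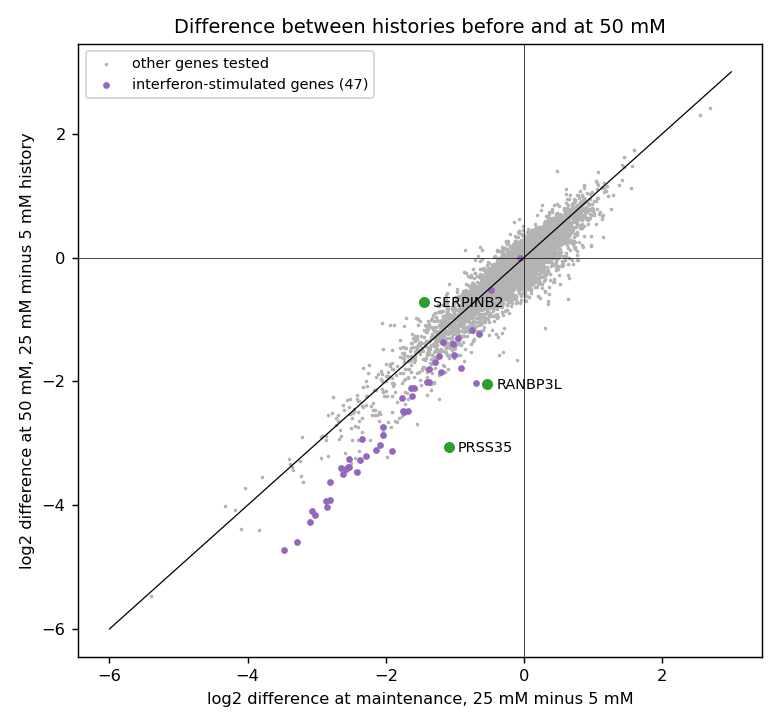
Log2 difference between histories at maintenance (x axis) and at 50 mM (y axis) for the 11768 tested genes, with the line of equality. The interferon-stimulated genes (purple) lie below the line in 46 of 47 cases, beside 6248 of all 11768 genes. The 3 genes in green are those whose difference changed by limma.

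The test of the change itself, which asks whether the difference between histories at 50 mM departs from that at maintenance, called 3 of 11768 genes, 1 upward (0.0085%) and 2 downward (0.017%). PRSS35, a secreted protein related to serine proteases, was at 0.983 and 0.838 RPKM with the 25 mM history and 14.6 and 15.2 RPKM with the 5 mM history, against 1.03 and 1.48 RPKM at 25 mM and 3.36 and 4.21 RPKM at 5 mM. The distance thus widened by -1.97 on the log2 scale (SE 0.18, adjusted p = 0.0354). RANBP3L, a nuclear export factor of SMAD proteins, was at 0.126 and 0.0248 against 3.35 and 3.47 RPKM at 50 mM and at 0.0465 and 0.0685 against 0.518 and 0.544 RPKM before (change -1.503, adjusted p = 0.0354). PRSS35 and RANBP3L passed the filter, which used only the libraries at 50 mM, through the 5 to 50 mM group alone. The filter thus favours genes with a wide gap at 50 mM. SERPINB2, the plasminogen activator inhibitor PAI-2, moved the other way. It was at 146 and 149 against 239 and 245 RPKM at 50 mM and at 94.6 and 100.2 against 274 and 259 RPKM before, so the gap narrowed (change 0.73, adjusted p = 0.0354). These calls rest on few libraries: limma called 6 genes without 25 mM replicate 1 and 0 without any one of the other 7 libraries, where 385 to 1573 genes had an unadjusted p under 0.05.

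By position, several stretches of neighbouring genes leaned to one side. Whole chromosomes had median differences from -0.124 (chromosome 18) to 0.157 (chromosome 21), and of 554 windows of 40 neighbouring tested genes 538 had a median within 0.25 of 0. The lowest window, on chromosome 6, holds the histone cluster, with a median of -0.72. The next lowest lies near the end of chromosome 11. Other windows leaned as well. From HNRNPA1L2 to PCCA on chromosome 13 the median was 0.364, with 29 genes higher and 2 lower. From ATF7IP to PTHLH on chromosome 12 it was -0.334, with 23 lower and 1 higher, and from CRYZ to LMO4 on chromosome 1 it was -0.352, with 24 lower and 6 higher. From OAF to ARHGAP32 (chromosome 11, 120211032 to 129279632), 39 of 41 tested genes were below 0 at 50 mM and 40 of 41 at maintenance, with medians of -0.52 and -0.43. Of these 31 were lower by the limma test and 1 was higher. The 40 tested genes just before OAF (114400666 to 119729200) had a median of 0.23, with 22 higher and 3 lower. On the other side the lean went on: the 11 tested genes after ARHGAP32 (129863636 to 134265855) had a median of -0.30, with 6 lower and 2 higher. SC5D, the sterol desaturase that has the largest difference of the sterol list, lies in the stretch from OAF to ARHGAP32 and was at 24.7 and 23.8 against 62.6 and 59.3 RPKM. The ends of the stretch were set after the values were seen, so these counts are a description, and a cause was not tested.

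**Figure D5:**
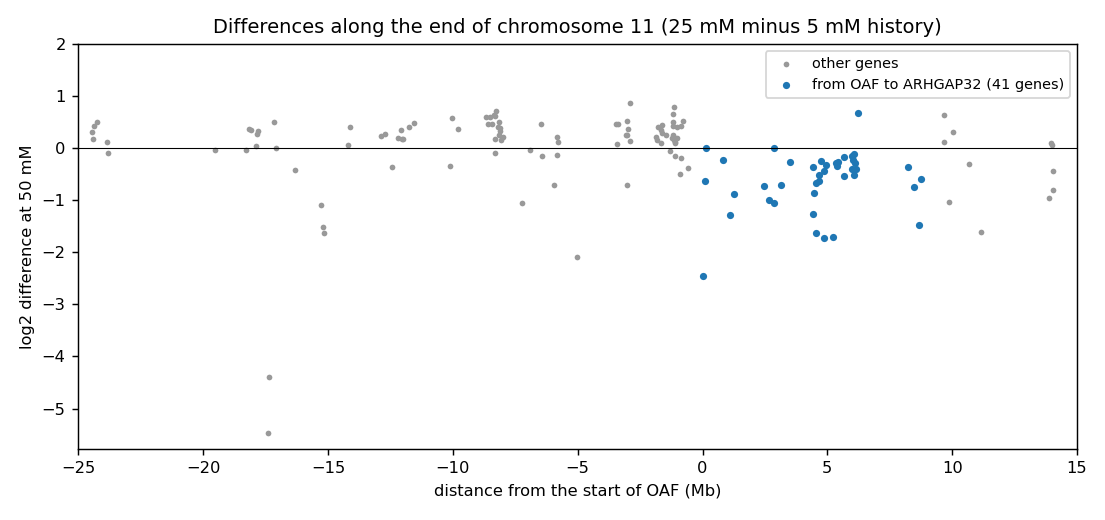
Log2 difference at 50 mM (y axis) of tested genes by distance in Mb from the start of OAF (x axis) near the end of chromosome 11, a point per gene. The 41 genes from OAF to ARHGAP32 are blue, with 39 of them below 0, and most grey genes just to their left lie above 0.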

How the data were processed

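RNA of AC16 cells was extracted with TRIzol, and per the submitters' processing notes STAR and hg38 were used; the counting tool and annotation are not given in the sources used here. The authors deposited RPKM values in 2 tables, 1 per maintenance glucose, which were joined by gene number (19479 genes). Whole reads were recovered for 100.0% of the 16297 genes above 0 (tolerance 0.0001 reads), which gave the depth. Groups follow the sample titles.

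The analysis used log2(RPKM + 1) and the genes that reached 1 RPKM in 2 or more libraries at 50 mM, tested with limma 3.58.1 (R 4.3.3, mean-variance trend, two-sided), adjusted by Benjamini-Hochberg at a threshold of 0.05. The contrasts at 50 mM and at maintenance each used their own 4 libraries, and the change between them used all 8. The fit was tested on simulated data. Named are, where printed, up to 15 called genes per direction that reach 5 RPKM in the higher group without overlap of the groups, up to 5 per direction for the change, up to 4 called members per list, genes present with one history only, and a fixed group such as YAP1 and TXNIP; some items are not reported here. The members and lists were chosen with earlier results of these data known. Alternatives were pseudocounts of 0.1 and 0.5, other filters, thresholds and scalings, limma without trend or robust, a GC and length correction, voom on recovered reads, a joint fit of 8 libraries and the removal of each library in turn. Gene starts came from RefSeq, matched for 19432 genes.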

Additional observations from a re-analysis of the deposited data

Results flagged for a closer look

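The effect of the rise to 50 mM differed between the histories for 3 genes by limma's test of that difference over all 8 libraries. The difference between histories changed by -1.97 for PRSS35, by -1.503 for RANBP3L and by 0.73 for SERPINB2 on the log2 scale. PRSS35 stood at 14.6 and 15.2 RPKM at 5 to 50 mM and at 3.36 and 4.21 RPKM at 5 mM, while both groups with the 25 mM history were between 0.838 and 1.48 RPKM. RANBP3L had at most 0.126 RPKM in each library with the 25 mM history. PRSS35 and RANBP3L passed the filter, which used only the libraries at 50 mM, through the 5 to 50 mM group alone. SERPINB2 was at 146 and 149 RPKM at 25 to 50 mM against 94.6 and 100.2 RPKM at 25 mM, and its 5 mM history libraries lay between 239 and 274 RPKM.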

How the results depend on the processing

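At 50 mM no pairing can be fitted, because the groups share only replicate number 2. At maintenance, where the groups share numbers 1 and 3, limma with the replicate block, added after seeing the data, called 1969 higher and 2638 lower genes (1315 and 2036 without it). Deviations of same-numbered libraries correlated at 0.264 across 11768 genes, over 2 pairs, and nothing in the labels ties the numbers to a shared batch. At 50 mM a threshold of 0.01 left 1223 higher and 1856 lower genes, and leaving out 1 library gave 870 to 2502 higher and 1540 to 3460 lower. Counts at 2-fold or more rose for higher genes to 63 with a pseudocount of 0.1, 76 with quantile normalization and 67 with voom, and fell to 375 lower genes at a mean of at least 5 RPKM, where fewer genes were tested. At maintenance the threshold of 0.01 left 452 higher and 1136 lower. The GC and length correction gave 2212 higher and the joint fit 2020. Leaving out 1 library gave 325 to 2382 higher and 1044 to 2944 lower there. With 1 library left out, the lone library is assumed to vary like the other groups. The 3 genes whose difference changed by limma became 0 at a threshold of 0.01 (704 genes at an unadjusted p under 0.05), with pseudocounts of 0.1 (674) and 0.5 (687), at a mean of at least 5 RPKM (541) and with voom (635), 1 without the filter and without trend, and 0 to 6 with 1 library left out. Of 216 named genes, 168 kept direction and side of the threshold at 50 mM under the alternatives run for them.

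Differences near 0 changed sign: CYR61 to 0.022 with median centring and 0.023 with the GC and length correction, NFAT5 to 0.013 with quantile normalization, CGAS to 0.049 and 0.055 with these 2 scalings, FOSL1 to 0.031, 0.018 and 0.068 with both and the GC and length correction, and SORD to 0.030, 0.030 and 0.0070 with the same 3. Without 1 library the values were -0.021 to 0.073 for MAPK3, with -0.011 without 25 to 50 mM replicate 3, -0.075 to 0.068 for CGAS, -0.071 to 0.029 for FOSL1, -0.026 to 0.29 for JUN and -0.049 to 0.0054 for SORD. List medians changed sign in 4 of 38 cases. The actin list went to 0.047 with median centring and to 0.013 or 0.00061 without 1 library, and the NRF2 list to 0.013 with median centring. The HOX list went to 0.020 at a mean of at least 5 RPKM, 0.023 with median centring, 0.16 with quantile normalization and 0.012 with the GC and length correction. The imprinted list went to -0.13 at a mean of at least 5 RPKM. The cause of these changes was not tested. Libraries of 23231096 to 24983510 reads give little precision below 0.12 to 0.129 RPKM for a gene of 1 kb.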

Other observations

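Other gene groups at 50 mM were mixed, and over all genes tested 20.1% were higher and 24.9% lower. Of 22 HOX genes, which encode positional factors, 5 were higher with the 25 mM history, 4 were lower and 13 did not pass, and 1 passed the filter through 1 group only. HOXA10 was higher by 0.66 on the log2 scale. HOXA9 was higher by 0.67 and HOXB6 lower at -0.58, but both calls were lost without 5 to 50 mM replicate 2 (adjusted p = 0.0775 and 0.0913), and that of HOXB6 also without replicate 1 (0.152). Of 29 NRF2 and antioxidant genes 7 were higher and 13 lower. NQO1, a quinone reductase, was at 801 and 777 RPKM with the 25 mM history and 544 and 543 RPKM with the 5 mM history, and HMOX1, heme oxygenase, at 19.7 and 17.8 against 44.6 and 57.2 RPKM. Of 34 respiratory chain subunits 3 were higher, 12 were lower and 19 did not pass, with NDUFA1 at 491 and 457 against 659 and 672 RPKM.

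Fatty acid genes gave 6 higher, 12 lower and 10 not passing of 28. FABP3, the fatty acid carrier of heart muscle, was at 3.37 and 1.84 against 20.8 and 20.98 RPKM, and PPARG, the regulator of fat storage, at 2.13 and 2.05 against 6.84 and 7.83 RPKM. Of 14 imprinted and DNA methylation genes 5 were higher and 4 lower, and TET2 and TET3, which oxidise methylcytosine, were higher by 0.47 and 0.57, calls that were lost without 5 to 50 mM replicate 1 (adjusted p = 0.0565 and 0.0513), and for TET2 also without replicate 2 (0.0694). Of 8 tested cardiac stress genes 2 were higher, 3 were lower and 3 did not pass, and NPPA, the atrial natriuretic peptide, was lower at 1.96 and 1.67 against 4.79 and 4.34 RPKM.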
